A study of Arabidopsis thaliana with 3 samples.

Results

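Seed storage proteins and oleosins were followed in whole Arabidopsis thaliana seedlings through 10 genes, taken by locus from the probes of 3 two-colour Agilent arrays. They were the cruciferins CRA1 (AT5G44120), CRU2 (AT1G03880) and CRU3 (AT4G28520), the 2S albumins SESA1 (AT4G27140), SESA2 (AT4G27150), SESA3 (AT4G27160) and SESA4 (AT4G27170), and the oleosins OLEO1 (AT4G25140), OLEO2 (AT5G40420) and OLEO4 (AT3G27660). These 10 of the 25383 loci matched on the array were read by 19 of its 43603 probes. The 4 albumin genes are consecutive on chromosome 4, and their related sequences could share probes.

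The fe-1 comparison had 2 arrays, each with RNA of untreated fe-1 seedlings in the Cy5 channel and of untreated wild-type seedlings of the Ler accession in the Cy3 channel, all at day 7 and zeitgeber time 15 h. FE encodes a MYB-type regulator needed for phloem development, and the labels do not describe the fe-1 lesion. The third array had 35S::FE-GR (#5) seedlings after 2 h in 1 µM dexamethasone (Dex) in Cy5 and mock-treated seedlings of the same single line in Cy3, at day 7 and zeitgeber time 14 h. The 35S promoter is active in most tissues, and a GR fusion stays in the cytoplasm in the absence of Dex. All plants grew on medium with 1% sucrose at 22 °C in long days. Both fe-1 arrays are labelled as biological replicates, but nothing says how their seedlings were grown apart. The p-values therefore measure the spread of these 2 arrays only, which limma mostly pools over genes (residual degrees of freedom 1, prior 6.54). A gene with a wide SD thus gets a smaller p-value than its own 2 ratios alone would give. The Dex comparison had 1 array, so it has no error and no test.

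Cruciferins and 2S albumins are the globulin and albumin reserves that fill the protein storage vacuoles of the Arabidopsis embryo. Oleosins coat the oil bodies of the seed and keep them from fusing. Their genes are transcribed during seed maturation under B3 factors such as ABI3, FUS3 and LEC2 and bZIP factors such as ABI5, and they are repressed after germination, when the reserves are consumed.

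On the 3 arrays 72.1% to 74.8% of Cy5 signals and 75.1% to 78.1% of Cy3 signals were well above background, no gene spot was saturated (0 on each array), and the number of arrays limits the precision. Both fe-1 arrays lay on the same slide and the Dex array on another. The fe-1 RNA was always in Cy5, so a dye effect of a probe and the genotype cannot be told apart. The 4 root hair markers and the 4 leaf markers examined were well above background in every channel. In whole seedlings, fewer cells of a type and less RNA per cell cannot be told apart.

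Levels below are log2 intensities after background correction and scaling, and ratios (also log2) have fe-1 or Dex on top, with ± for the SD of 2 arrays. To be tested in fe-1, a gene needed a probe well above background in 2 or more of the 4 channels, and its brightest such probe was read. A gene is called at an adjusted p under 0.05 in limma, adjusted over all 20680 genes tested. Of the 10 members, 7 were tested, and CRU2, SESA1 and SESA3 were too dim.

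Both detectable cruciferins, the 2S albumin SESA2 and the oleosins OLEO1 and OLEO2 fell in fe-1. The cruciferins changed most, by 5.29-fold in CRU3 and 3.81-fold in CRA1, and the oleosins by 1.80-fold in OLEO1 and 1.62-fold in OLEO2. SESA4 and OLEO4 did not pass the test. In all, 5 of the 7 tested members were called lower and 0 higher, where 11.4% of all genes were called lower and 8.90% higher. The 7 had a median ratio of -0.70, against -0.01 over all genes tested. SESA2 and SESA4 entered the test through the wild-type channels alone, so their direction was favoured by the filter. Over all genes 1841 were called higher and 2348 lower, a split that became 139 and 411 with the scanner's own processed signals and 10 and 49 when spots with a non-uniform local background were kept. The calls depended on that choice: 2 members (SESA2 and OLEO2) were called with the processed signals and 0 with those spots kept, although all 7 ratios stayed below 0 in both.

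**Figure D1:**
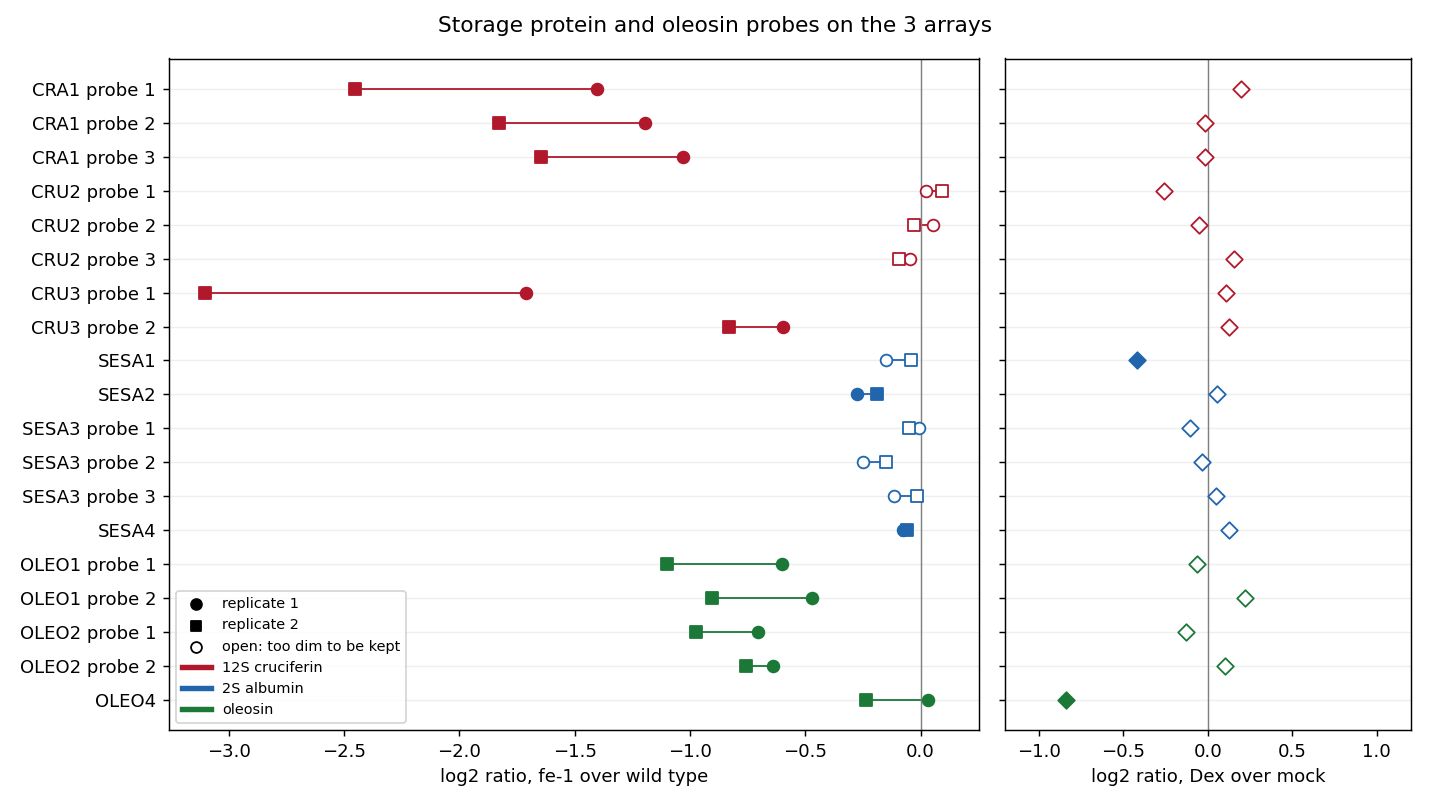
Log2 ratio of each of the 19 member probes, fe-1 over wild type on replicate 1 (circles) and replicate 2 (squares) at left and Dex over mock at right, with open symbols for probes too dim to be kept and probes of a gene numbered in the order of their names. The 3 CRA1 probes, both CRU3 probes and both probes of OLEO1 and OLEO2 lie below 0 on both fe-1 arrays, while only SESA1 and OLEO4 were kept on the Dex array.

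Among the cruciferins, CRU3 had levels of 8.74 and 6.55 in fe-1 on replicates 1 and 2, against 10.45 and 9.65 in wild type. Both fe-1 samples were below both wild-type samples, and the fe-1 sample of replicate 2 was far below the other. The ratio was -1.71 on replicate 1 and -3.10 on replicate 2, and CRU3 fell by 2.404 ± 0.98 in the mean (limma adjusted p = 0.00112). The spots behind these values had median intensities of 392 and 116.5 in fe-1 (local background 60 and 65) and of 1204 and 763 in wild type (local background 18 and 15). The fe-1 spot of replicate 2 was thus the closest to its background. CRU3 had a second probe, for another RefSeq transcript of the gene, that read -0.71 ± 0.16 (limma adjusted p = 2.91e-05 over all 33476 probes kept). Its direction was the same and its size smaller, so the fold of CRU3 depends on the probe.

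CRA1 had levels of 8.78 and 7.22 in fe-1, against 10.18 and 9.67 in wild type. Here too the genotypes did not overlap and the lowest value was fe-1 on replicate 2. CRA1 fell by 1.93 ± 0.74 (limma adjusted p = 0.000917), with -1.40 on replicate 1 and -2.45 on replicate 2. Its 3 probes ranged in mean ratio between -1.93 and -1.34, all of them called in the fit over probes. CRU2, the remaining 12S gene, was not well above background with any of its 3 probes in any channel of any array, so no level or ratio of it was measured.

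The 2S albumins were near the limit of detection. SESA2 had levels of 6.19 and 6.17 in fe-1, not well above background, against 6.47 and 6.36 in wild type, which were. SESA2 was kept through the wild-type channels alone, so the filter favoured a lower fe-1 value. Both fe-1 levels lay below both wild-type levels, as in 25.1% of all genes tested. SESA2 fell by 0.23 ± 0.062 (limma adjusted p = 0.0181). Under the reported processing that makes it at least 1.17-fold higher in wild type, a bound equal to the fold of its mean ratio. The ratio of SESA2 moved to -1.50 with the scanner's processed signals (limma adjusted p = 0.0279). It moved to -0.099 with the non-uniform background spots kept (limma adjusted p = 0.680), where the bound does not hold. Such a bound divides the bright group's mean by the dim group's, where a dim signal counts as no less than that array's faintest well-above-background probe, and it is open to dye bias. SESA4 had 6.21 and 6.07 in fe-1, against 6.29 and 6.13 in wild type, and its genotypes overlapped (-0.07 ± 0.013, limma adjusted p = 0.343). SESA3 was well above background with 2 of its 3 probes in wild type on replicate 1 and in no other channel, and SESA1 in no channel of the fe-1 arrays.

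The oleosins, structural proteins of the oil body surface, did not all pass the test. OLEO1 had levels of 7.41 and 6.66 in fe-1, against 8.02 and 7.76 in wild type. It fell by 0.85 ± 0.35 (limma adjusted p = 0.00187), with no overlap between genotypes, and its second probe read -0.69 ± 0.31. OLEO2 had 7.61 and 7.17 in fe-1, against 8.25 and 7.93 in wild type. Its genotypes did not overlap either, and it fell by 0.70 ± 0.083 (limma adjusted p = 0.000208), with -0.84 ± 0.19 at its other probe. OLEO4 had 7.97 and 7.50 in fe-1, against 7.94 and 7.73 in wild type, so its genotypes overlapped. Its ratio was 0.03 on replicate 1 and -0.24 on replicate 2 (mean -0.10 ± 0.19, limma adjusted p = 0.329). Whether OLEO4 differs from OLEO1 and OLEO2 was not tested.

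Counted over the members, both fe-1 levels lay below both wild-type levels in 5 of the 7, against 25.1% of all genes tested. SESA2 is one of the 5, and the filter favoured its place there. At least 2-fold lower on both arrays were CRU3 and CRA1, 2 of the 7 against 0.266% of all genes. A mean ratio at least 1.5-fold lower was found in 4 members, against 1.15% of all genes. On single arrays, 6 members were below 0 and 2 at least 2-fold lower on replicate 1, and 7 were below 0 and 3 at least 2-fold lower on replicate 2. By the mean ratio, CRU3 had rank 7 from the lowest of the 20680 genes, CRA1 rank 10, OLEO1 rank 109 and OLEO2 rank 165. Of the 12 member probes kept, which are not independent measurements, 10 were called lower, against 10.3% of all probes. With the non-uniform background spots kept limma called 0 of the 12 (9 at an unadjusted p under 0.05), and with the processed signals 0 (11 unadjusted).

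**Figure D2:**
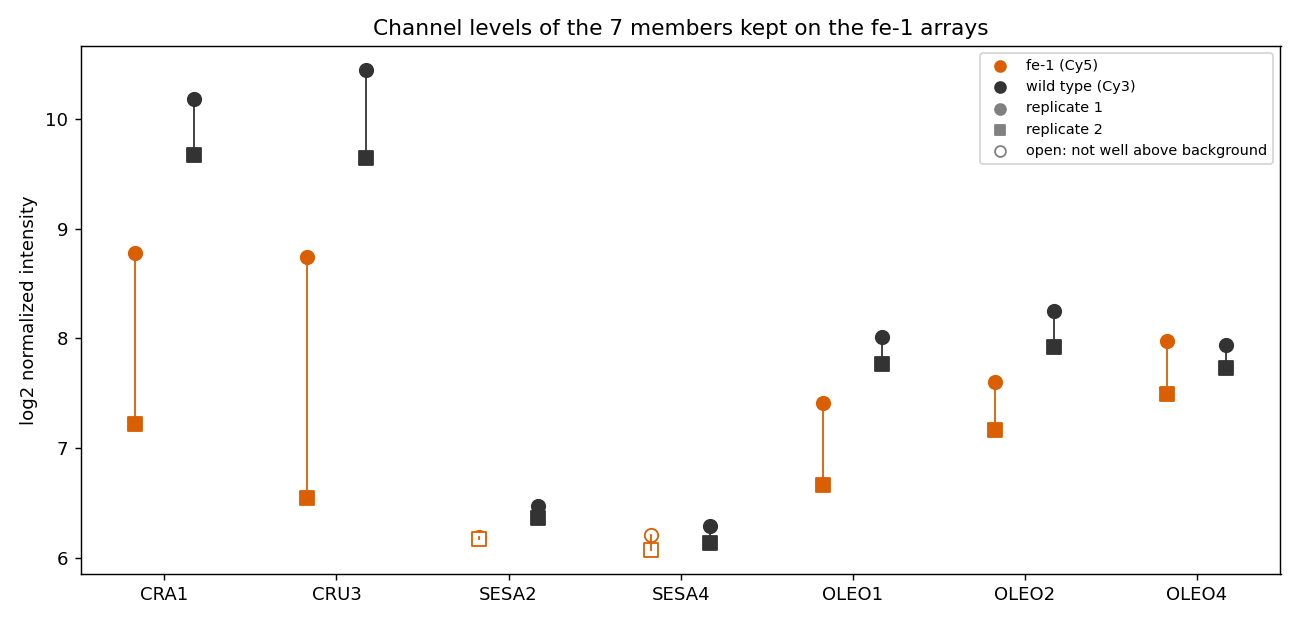
Log2 normalized intensity of the 7 tested members in fe-1 (orange, Cy5) and wild type (black, Cy3), each on replicate 1 (circle) and replicate 2 (square), with open symbols where the probe was not well above background. Levels of different genes come from different probes and are not comparable, but within each gene replicate 1 lies above replicate 2 in both genotypes, and the distance is widest for CRU3 in fe-1 (2.19).

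The 2 replicates differed in these transcripts in both genotypes. All 7 tested members were higher on replicate 1 than on replicate 2 in fe-1 and in wild type alike, where 38.9% of all genes were. Other lists held such genes too, with 4 of 4 root hair markers, 2 of 2 tested seed coat markers and 2 of 2 guard cell markers. There were also 3 of 4 leaf markers, 8 of 13 late embryogenesis genes and 4 of 6 other storage proteins. Processing enzymes had 2 of 4 and reserve use 6 of 14. Seed regulators had 3 of 10, other oil body proteins 1 of 6, repressors 0 of 4 and seed oil synthesis 0 of 2. The difference between replicates was 2.19 in fe-1 and 0.80 in wild type for CRU3, 1.56 and 0.51 for CRA1, and 0.75 and 0.25 for OLEO1. It was 0.48 and 0.21 for OLEO4, and 0.44 and 0.32 for OLEO2. SESA2 (0.019 and 0.11) and SESA4 (0.13 and 0.15) differed less in fe-1 than in wild type. Neither albumin was well above background in fe-1, so their order there is uncertain. For CRU3 the value in fe-1 was the highest of all 20680 genes. Over the 7 members the medians were 0.48 in fe-1 and 0.25 in wild type, against 0.0085 and 0.0046 over all genes. The SD between the arrays' ratios was wide for CRU3, CRA1 and OLEO1, with ranks 7, 15 and 97 from the widest of all genes. It was 0.19 for OLEO4, 0.083 for OLEO2, 0.062 for SESA2 and 0.013 for SESA4, against a median of 0.052 over all genes. With 1 sample per genotype on each array, none of these differences between replicates was tested.

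**Figure D3:**
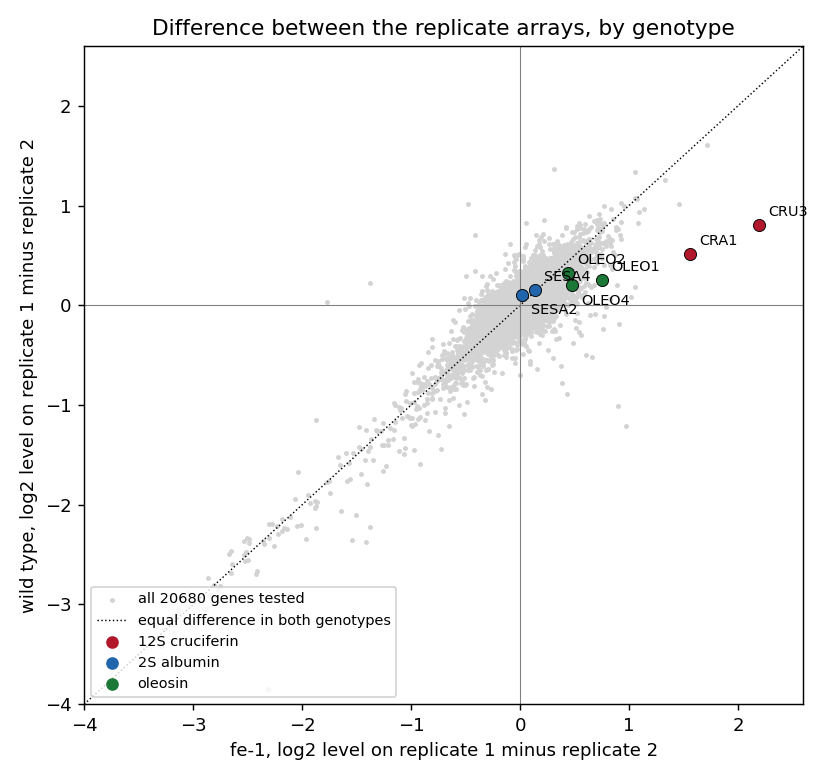
Log2 level on replicate 1 minus replicate 2 in fe-1 (x axis) and in wild type (y axis) for all 20680 genes tested (grey) and the 7 tested members (coloured by family), with a dotted line where both genotypes differ equally. The members lie right of and above 0, and CRU3 and CRA1 lie farthest right, below the dotted line.

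Other seed proteins were followed through gene lists. Calls in these and the later lists are given under the reported processing only, and were not followed under the alternatives. Over all genes the reported processing called 4189. With the non-uniform background spots kept 59 were called, and 0 in the authors' value table. Of 7 other storage proteins, 6 were tested, 2 fell and 0 rose, with a median of -0.14. Among all genes, 11.4% were called lower and 8.90% higher. AT2G28490, a cupin family gene, had levels of 7.44 and 6.66 in fe-1, against 8.27 and 8.38 in wild type. It fell by 1.27 ± 0.62 (limma adjusted p = 0.00264), and its wild-type samples, unlike those of CRU3, were not higher on replicate 1. The cupin gene AT4G36700 fell by 0.34 ± 0.0024. The albumin gene SESA5 was too dim in both fe-1 samples and read -0.21 ± 0.36 (limma adjusted p = 0.183), and the vicilin gene PAP85 was too dim to be tested. Of 8 other oil body proteins, 6 were tested and 3 fell, against the 11.4% of all genes. The wild-type channels alone brought 3 of these 6 into the test, CLO1 being the called one, so the filter favoured their direction. The 3 genes that fell were AT2G25890 (-0.30 ± 0.13), AT3G01570 (-0.30 ± 0.026) and the caleosin gene CLO1 (-0.17 ± 0.026). AT2G25890 and AT3G01570 are oleosin family genes, both well above background in fe-1 too, and AT3G01570 read 0.00 at its other probe. The fall of CLO1 was bounded at 1.09-fold or more.

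Vacuolar processing enzymes cut storage protein precursors into their mature chains. Of the 4 genes, 3 were called lower, where 11.4% of all genes were. The seed enzyme gene BETA-VPE (AT1G62710) read -0.16 ± 0.13, which did not pass. DELTA-VPE (AT3G20210), known from the inner seed coat, fell by 0.83 ± 0.33, with limma's adjusted p at 0.00159. A dimmer probe of the same gene read -0.18. ALPHA-VPE (AT2G25940) and GAMMA-VPE (AT4G32940), both known from vegetative organs, fell by 0.47 ± 0.029 and 0.22 ± 0.070, and the 4 probes of GAMMA-VPE ranged between -0.26 and -0.07.

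Late embryogenesis proteins, which accumulate as the embryo dries, had 10 of 13 tested genes lower, 1 higher and 2 not called, with a median of -0.28, where 11.4% of all genes were called lower. The wild-type channels alone brought 3 of the 13 into the test, including EM1 and XERO1 among the 10, so the filter favoured their direction. M17 (AT2G41260) had levels of 9.31 and 8.93 in fe-1, against 10.41 and 11.01 in wild type, with no overlap. It fell by 1.59 ± 0.70 (limma adjusted p = 0.00163), and its wild-type level was higher on replicate 2, the reverse of the cruciferins. The peroxiredoxin gene PER1 (AT1G48130) fell by 0.77 ± 0.20, AT2G35300 by 0.73 ± 0.25, AT3G17520 by 0.52 ± 0.13 and AT3G15670 by 0.35 ± 0.080. EM6 fell by 0.34 ± 0.18. EM1 fell by 0.28 ± 0.100, a change bounded at 1.19-fold or more because its fe-1 signal was dim. RAB18 (AT5G66400), a dehydrin gene that vegetative tissue also expresses, was the one that rose (0.19 ± 0.045), named after its value was seen. Its other 3 probes ranged between -0.11 and 0.20 and were not called.

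No tested transcription factor of the seed program was called, and several were dim. Of 15 regulators, 10 were tested and limma called 0 in either direction, with 3 at an unadjusted p under 0.05 and ratios between -0.13 and 0.13. ABI3 read 0.02 ± 0.025 (limma adjusted p = 0.833), LEC1 0.08 ± 0.10, LEC2 -0.03 ± 0.10 and ABI5 0.13 ± 0.059, while FUS3 was too dim to be tested. Mean levels in fe-1 and wild type were 6.47 and 6.45 for ABI3, 6.34 and 6.26 for LEC1, and 6.05 and 6.07 for LEC2. At such dim probes the background correction pulls ratios toward 0, so a change could be missed. The wild-type channels alone brought 2 of the 10 into the test, LEC2 and L1L, so the filter favoured a lower fe-1 value there. Among 4 repressors of the seed program, the chromatin remodeller gene PKL (AT2G25170) fell by 0.18 ± 0.030 (limma adjusted p = 0.0357) and VAL1 read 0.07 ± 0.11. Over all genes tested, 11.4% were called lower and 8.90% higher.

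Genes of reserve use take oil through peroxisomal beta-oxidation and the glyoxylate cycle. Of 14 tested, 2 were called higher, 2 lower and 10 not called, with a median of -0.04. The shares over all genes were 8.90% higher and 11.4% lower. ICL (AT3G21720), the isocitrate lyase of the glyoxylate cycle, rose by 0.89 ± 0.0068, or 1.85-fold (limma adjusted p = 3.94e-05), with 0.78 and 0.14 at its other 2 probes. MLS (AT5G03860), the malate synthase of the same cycle, fell by 0.25 ± 0.20 (limma adjusted p = 0.0447). The acyl-CoA oxidase gene ACX4 fell by 0.39 ± 0.12, the acyl-CoA synthetase gene LACS6 rose by 0.21 ± 0.053 (-0.08 at its other probe), and PCK1, for gluconeogenesis, read 0.02 ± 0.12. The seed oil genes FAE1 (0.10 ± 0.080) and DGAT1 (-0.11 ± 0.0057) were not called.

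Markers of other tissues moved on the same arrays, where 11.4% of all genes were called lower and 8.90% higher. All 4 root hair markers (COBL9, RHS19, EXPA7 and EXPA18) fell, with a median of -1.15, and their summed intensity was 1211 and 1040 in fe-1, against 2497 and 2342 in wild type. Of the 4 leaf markers 3 rose, with sums of 780605 and 753615 in fe-1, against 559731 and 550411 in wild type. Their probes disagreed, with 10 of 13 called higher for RBCS1A, 3 of 4 for RBCS3B, 2 of 9 for LHCB1.3 and 2 of 5 for LHCA1, the gene not called. Of the 4 genes listed as seed coat markers, CHS fell by 0.34 ± 0.12 and STK rose by 0.28 ± 0.022. BAN and TT10 were not well above background in any channel and were not tested. The sums were 9716 and 8380 in fe-1, against 11531 and 11088 in wild type, and came mostly from CHS. Its mean level was 13.08 in fe-1 and 13.43 in wild type, against 7.75 and 7.47 for STK. These sums therefore follow CHS and not the list as a whole. Both guard cell markers rose, with sums of 719 and 640 in fe-1, against 616 and 509 in wild type. The part of these shifts in the seed transcripts was not tested.

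**Figure D4:**
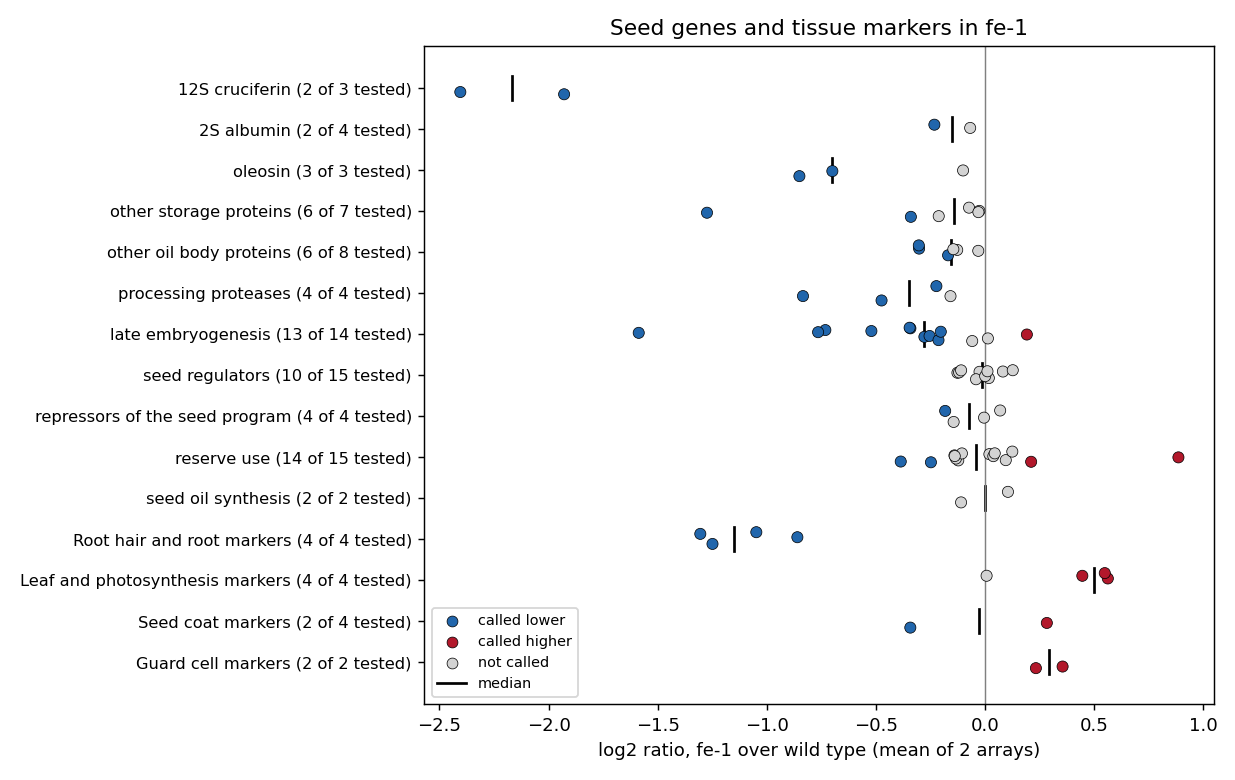
Mean log2 ratio, fe-1 over wild type, of each tested gene by list, coloured by its call at an adjusted p under 0.05, with a bar at each list's median and a little vertical scatter for legibility. The cruciferins lie lowest, the late embryogenesis genes spread between -1.59 and 0.19, and the seed regulators stay within 0.13 of 0.

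On the Dex array almost none of these transcripts was detectable. Of the 19 member probes, 0 were well above background with Dex and 2 with mock, although 10 were in each fe-1 channel and 14 and 12 in wild type. Signals were not scaled between the slides, and the line, treatment and hour differ as well, so these counts stand side by side only. OLEO4 had a level of 6.16 with Dex, not well above background, against 7.00 with mock. Its ratio was -0.84, and it was at least 1.79-fold higher with mock. SESA1 had 6.01 with Dex, also not well above background, against 6.43 with mock, and was at least 1.32-fold higher with mock (ratio -0.42). These bounds come from 1 array and have no error. Both genes were kept through the mock channel alone, so the filter favoured their direction. Neither was 2-fold lower (0 of 2) or 2-fold higher (0 of 2), where 2.95% of the 20494 genes kept on that array were lower by that much and 3.58% higher. With the scanner's processed signals both did, at -3.27 for OLEO4 and -3.05 for SESA1. CRU3, CRA1, OLEO1 and OLEO2 were not well above background in either channel, so whether Dex changed them was not measured.

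In the other seed lists, genes kept on the Dex array had medians of 0.20 (other storage proteins, 5 genes), -0.08 (oil body proteins, 2), 0.26 (processing enzymes, 3), -0.03 (late embryogenesis, 9) and 0.10 (regulators, 9). PCK1 was the single listed gene past 2-fold, at 1.25, and ICL was at 0.69.

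The genes whose ratios on the 3 arrays lay closest to the members' medians (-0.60 and -0.76 on the fe-1 arrays over 7 members, and -0.63 on the Dex array over 2) were AT4G30670, AGP30 (AT2G33790), AT5G64100, TIP4;1 (AT2G25810) and AT5G64120. Their Euclidean distances over the 3 arrays were between 0.116 and 0.151, out of 19978 genes. The Dex coordinate comes from OLEO4 and SESA1, both kept through the mock channel alone, and SESA1 is not among the 7, so the list is a description of nearness to that point only.

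**Figure D5:**
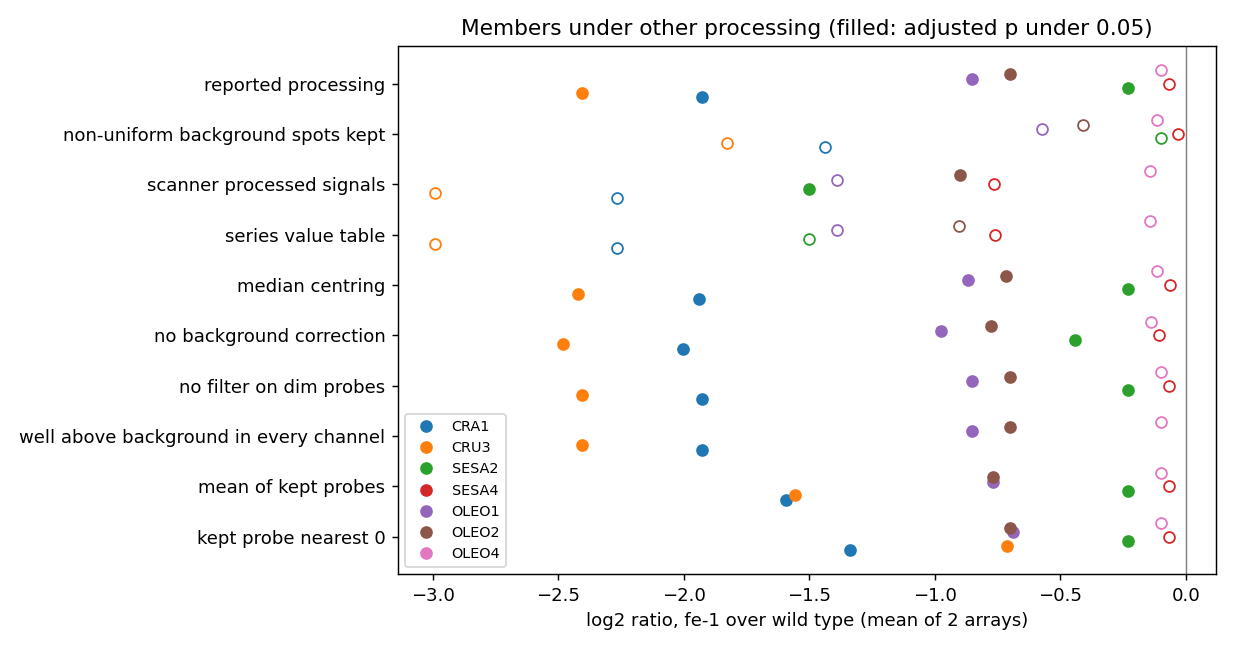
Mean log2 ratio, fe-1 over wild type, of the 7 tested members under the reported processing and 9 alternatives (rows), filled where the adjusted p was under 0.05. All ratios lie at or below -0.03, and the calls of CRU3, CRA1 and OLEO1 are absent in 3 rows.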

How the data were processed

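Each deposited file of an array lists the intensity of every spot in both channels; per the file headers the software was Feature Extraction 10.7.3.1 (10.7 in the submitters' processing notes). The median spot intensity and median local background were used. The deposited log10 ratios and processed signals were background-subtracted and dye-normalized by that software per the file headers. The authors' own value table gives log2 ratios, Cy5 on top, that differ from the converted log10 ratios by at most 0.005, with a median of 0 per array.

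Spots whose local background was non-uniform (32 on fe-1 replicate 1, 0 on the others) were left out, and normexp (offset 50) and loess within arrays were run in limma 3.58.1 under R 4.3.3, with control and outlier spots at weight 0; 8 to 43 spots were left out per array. Levels in fe-1 were Aquantile-scaled. The offset pulls ratios of dim probes toward 0. Probes (34285 of 43603 matched to a locus) were named by unversioned accession through a RefSeq table (TAIR10.1); positions are not printed because the array's annotation predates that assembly. On the Dex array a probe was kept if well above background in at least 1 channel. The 2 fe-1 ratios of a gene were tested against 0 with lmFit and eBayes (residual degrees of freedom 1, prior 6.54) and adjusted by Benjamini-Hochberg. The fit was tested on simulated data. Members, lists, the spots left out and the tests were chosen with earlier results of these data known. Named from each list were the called genes with the largest ratios, at most 5, and genes fixed by name; 2 of the listed genes, BZIP53 and ACX3, had no matched probe.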

Additional observations from a re-analysis of the deposited data

How the results depend on the processing

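Each tested member kept the sign of its mean ratio under each of the 9 processing alternatives that kept it, with CRU3 between -2.99 and -0.71, CRA1 between -2.27 and -1.34, and SESA2 between -1.50 and -0.099. Called members numbered 5 as reported, 2 with the scanner's processed signals, 0 with the non-uniform background spots kept and 0 in the series value table, where limma left 6, 4 and 4 members at an unadjusted p under 0.05. Genes called over the whole array numbered 4189 as reported, 550, 59 and 0 under the same alternatives (6462, 2281 and 6036 unadjusted). Member probes called by limma numbered 10 as reported, 0 with the spots kept and 0 with the processed signals (9 and 11 unadjusted). Under median centring limma's prior degrees of freedom were infinite, so its p-values carry no gene's own spread. Members at least 2-fold lower with Dex numbered 0 as reported, 2 with the processed signals, 2 in the authors' value table, and 1 with median centring and without background correction. With a single fe-1 array, which gives no test, CRU3 read -3.10 or -1.71, CRA1 -2.45 or -1.40, OLEO1 -1.10 or -0.60 and OLEO2 -0.76 or -0.64, while OLEO4 reversed, between -0.24 and 0.034. The cause of these changes was not tested. The fe-1 test is itself paired by array, since it fits the ratios within arrays, so a replicate block adds nothing to it. For Dex over mock, no paired analysis was possible because that comparison has 1 array.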
